A study of Homo sapiens with 5 samples.

Results

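Mitochondrial ribosomal protein genes were followed through single-cell RNA libraries of MDA-MB-468, an established line of triple-negative breast cancer cells. The members are the genes whose symbol is MRPL or MRPS followed by a number and at most 1 letter, and which reached 10 CPM (a gene's UMIs, unique molecular identifiers, per 1000000 UMIs summed over a library's cells) in at least 1 library. Of 36601 features, 78 had such a symbol and 77 reached the minimum, 76 of them in every library. MRPL53 was left out, with 94 to 165 UMIs per library and at most 1.44 CPM. The nearest member inside the limit, MRPL30, had 10.2 to 13.9 CPM.

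The study gave cells PF0517515, by its title an ACC inhibitor. ACC, acetyl-CoA carboxylase, supplies malonyl-CoA for fatty acid synthesis. There were 5 groups of 1 library each. They held untreated cells at 0 h, cells after 6 h and after 72 h of the inhibitor, untreated cells at 72 h, and cells in recovery after 72 h of the inhibitor. Dose, vehicle and length of recovery are not given in the labels, and all libraries come from 1 cell line. No untreated library was analysed at 6 h, and none is known to match recovery in time. With 1 library per group no difference has a replicate check. No test was made, and the 95% intervals printed in parentheses (exact, Clopper-Pearson) cover counting error only.

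Mitochondrial ribosomes translate the few messages of mitochondrial DNA, all of which encode subunits of the respiratory chain and of ATP synthase. Their RNA comes from mitochondrial DNA, but every one of their proteins is encoded in the nucleus and imported. Many of the proteins have a bacterial counterpart, and the rest were added during the evolution of mitochondria. By these textbook assignments the members fall into 50 proteins of the large subunit, 29 with a bacterial counterpart and 21 without, and 26 of the small subunit, 16 with and 10 without. Names do not always match the place in the ribosome. MRPS30 and MRPS18A sit in the large subunit in spite of the S, and MRPS36 is now known as a component of the oxoglutarate dehydrogenase complex of the citric acid cycle rather than of the ribosome.

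Kept cells numbered 1927 to 3705 per library, with 85376888 to 114350566 UMIs in all and a median of 26540 to 41573 per cell. Between 0 and 7 cell barcodes were shared by any pair of libraries, at most 0.232% of a library. All 8 epithelial markers reached 10 CPM in every library, from 6714 CPM in sum at 72 h of inhibitor to 11599 at 0 h. None of 12 markers of blood, vessel, fibroblast and liver cells did, with 7.11 to 17.2 CPM in sum and 3 to 6 of them at 0 UMIs.

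The genes lie on 21 chromosomes, and 68 of the 77 matched an entry in RefSeq's table of gene starts (GRCh38.p14). The 250 bases before each start were searched on both strands for short motifs. The ETS motif CCGGAAG, of the type that GABP binds, was in 32.4% of member promoters, in 17.5% of the promoters of genes that reached 10 CPM and in 8.82% of all promoters in the table. AAGATGGC, a YY1 motif, was in 7.35%, 1.84% and 1.37%. The NRF1 motif was in 11.8% of member promoters and in 12% of those of genes at the minimum. The GC box GGGCGG and CCAAT were in fewer member promoters (55.9% and 27.9%) than in those of genes at the minimum (69.3% and 36.3%). Members with the ETS motif had a median log2 ratio of -0.20 at 72 h of inhibitor against 72 h untreated, beside -0.22 for those without it. Sequences are printed for 5 members, chosen after their ratios in that comparison and their motifs were seen, to show promoters with and without ETS and CCAAT motifs. Each runs 5′ to 3′ on the gene's strand up to the start, or up to the first base that GENCODE 29 annotates as exonic, with ETS or CCAAT motifs on either strand in capitals. MRPL28 (chr16:370539-370658, minus strand), MRPL20 (chr1:1407314-1407413, minus strand), MRPS18A (chr6:43687792-43687911, minus strand) and MRPL50 (chr9:101398619-101398738, minus strand) had log2 ratios of -1.24, -1.14, -1.09 and -0.92, and MRPS30 (chr5:44808827-44808924, plus strand) had the highest, 0.82.
MRPL28: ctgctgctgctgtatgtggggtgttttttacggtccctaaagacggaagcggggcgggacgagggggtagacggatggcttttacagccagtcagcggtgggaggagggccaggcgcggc
MRPL20: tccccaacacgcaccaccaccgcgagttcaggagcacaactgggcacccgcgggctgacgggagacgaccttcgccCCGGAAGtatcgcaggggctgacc
MRPS18A: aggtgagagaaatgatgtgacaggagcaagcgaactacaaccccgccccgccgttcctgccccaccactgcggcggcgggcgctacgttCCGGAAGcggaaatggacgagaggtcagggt
MRPL50: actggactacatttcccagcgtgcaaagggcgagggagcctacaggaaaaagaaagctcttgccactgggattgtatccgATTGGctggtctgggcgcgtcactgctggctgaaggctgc
MRPS30: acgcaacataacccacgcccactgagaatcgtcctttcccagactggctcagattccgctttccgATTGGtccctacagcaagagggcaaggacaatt
The printed stretches of MRPL20 and MRPS18A hold CCGGAAG, those of MRPL50 and MRPS30 hold CCAAT on the other strand (ATTGG), and that of MRPL28 holds neither. MRPS18A also has a CCAAT motif outside the printed stretch, within the 250 bases searched. MRPL20 has a further CCGGAAG within the bases searched, which begins at its last printed base and is not in capitals. As these members were picked by hand, nothing about motifs and ratios is read from them.

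As a whole the mitochondrial ribosomal protein genes were highest at 0 h and lowest in the libraries that had seen 72 h of the inhibitor. Below, values of the 5 libraries are in the order 0 h untreated, 6 h inhibitor, 72 h untreated, 72 h inhibitor and recovery. The members' summed share of all UMIs was 1.14%, 0.970%, 0.944%, 0.782% and 0.757%. The step from 0 h to 6 h of inhibitor was about as large as that from 0 h to 72 h without inhibitor, so the 6 h and the 72 h untreated libraries lay close together. Both libraries that had seen 72 h of inhibitor held a smaller share than either untreated library. Large subunit genes held 0.695%, 0.585%, 0.563%, 0.451% and 0.457% of UMIs, and small subunit genes 0.439%, 0.378%, 0.373%, 0.326% and 0.295%. The ratio of large to small subunit UMIs was 1.58, 1.54, 1.51, 1.38 and 1.55, so the library at 72 h of inhibitor had the lowest ratio and recovery lay among the others. Among the classes by subunit and bacterial counterpart, the sum of the 10 small subunit genes without a counterpart had the narrowest range. It was 1076, 927, 938, 1008 and 873 CPM. Its single members did not share a narrow range, with 0.26 for MRPS18B to 1.70 for MRPS25 on the log2 scale.

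Other parts of the mitochondrial program had other orders. The 13 protein-coding genes of mitochondrial DNA, the templates that these ribosomes translate, held 4.94, 6.33, 6.57, 4.56 and 3.64 UMIs per member UMI. Relative to the members they were higher at 6 h and at 72 h without inhibitor than at 0 h, and lower in both libraries after 72 h of inhibitor. Nuclear-encoded subunits of oxidative phosphorylation held 2.55, 2.61, 2.96, 2.80 and 3.19 UMIs per member UMI. Their own share of all UMIs was 2.91%, 2.53%, 2.79%, 2.19% and 2.42%. At 72 h of inhibitor against 72 h untreated, scaled by library totals, 65 of 75 were lower, where 61.0% of all genes were. Their median log2 ratio was -0.37, beside -0.23 for the members. Cytosolic ribosomal protein genes held 16.7, 18.1, 18.0, 33.2 and 28.6 UMIs per member UMI, with the highest value at 72 h of inhibitor. These are ratios of messages, and ribosomes were not measured. Since cytosolic ribosomal protein and mitochondrially encoded genes take a large share of all UMIs, the members' share was also taken of the remaining UMIs only. It was 1.52%, 1.27%, 1.23%, 1.11% and 1.00%, in the same order. Counted per cell without scaling, the mean number of member UMIs was 352, 344, 303, 346 and 219. By that measure the cells at 72 h of inhibitor, which had the most UMIs per cell, held about as many member UMIs as those at 0 h. Recovery cells, which had the fewest UMIs per cell, also held the fewest member UMIs.

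**Figure D1:**
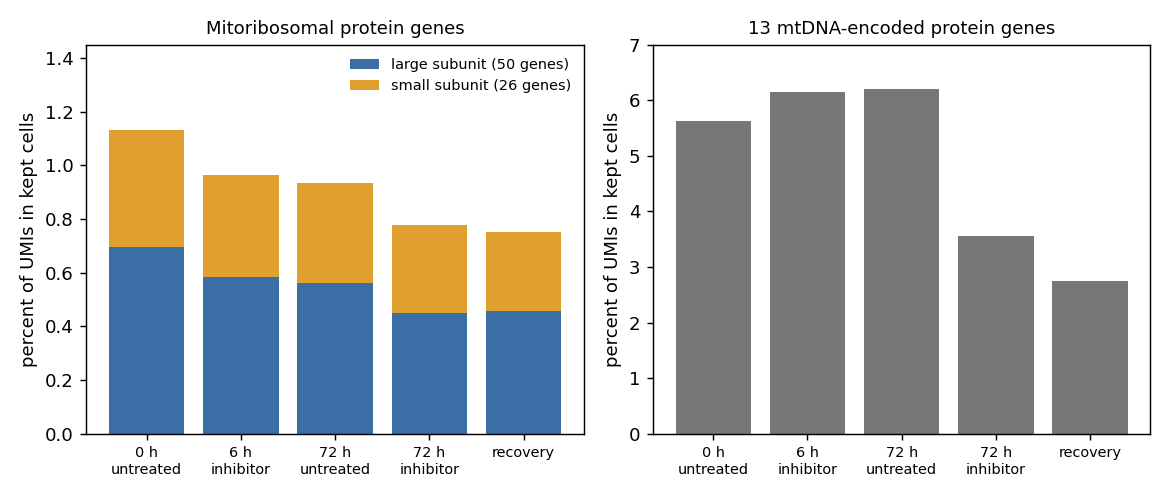
Left, percent of UMIs in kept cells (y axis) taken by the 50 large subunit genes (blue) and the 26 small subunit genes (orange) in each library (x axis). Right, the same for the 13 protein genes of mitochondrial DNA. Members, counting MRPS36, hold 1.14% at 0 h and 0.757% in recovery, and the mitochondrial messages are higher at 6 h and at 72 h untreated than at 0 h.

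Gene by gene, the 0 h library was the highest of the 5 for 53 of the 77 members, beside 18.3% of the 9843 genes that reached 10 CPM in any library, and it was the lowest for none of them, beside 25.2%. Recovery was the lowest library for 42 members, beside 34.4% of all genes, and 72 h of inhibitor for 22, beside 22.3%. At 72 h of inhibitor 57 members lay below both untreated libraries (44.7% of all genes did) and 13 above both (32.1%). In recovery 60 lay below both (48.3%) and 7 above both (32.6%). At 6 h of inhibitor 29 lay below both (23.3%) and 5 above both (38.5%). The range over the 5 libraries had a median of 0.76 on the log2 scale over members and 0.90 over all genes. MRPL2, whose bacterial counterpart lies near the peptidyl transferase centre, had the smallest range, 0.13, at 87.0, 80.0, 86.1, 85.3 and 87.8 CPM.

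**Figure D2:**
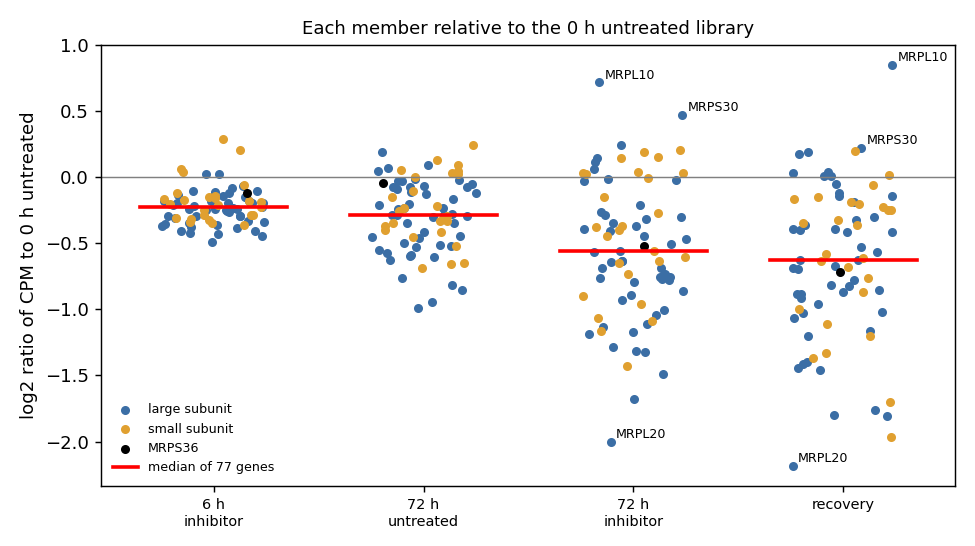
Each point is 1 member's log2 ratio of CPM to the 0 h untreated library (y axis) in the library on the x axis, blue for large and orange for small subunit genes and black for MRPS36. Red lines mark the medians, from left to right -0.22, -0.28, -0.56 and -0.63, and the points spread more widely in the last pair of libraries.

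Set against 0 h, 63 members were lower at 72 h of inhibitor (51.3% of genes were) and 67 in recovery (52.7%). Past 1.5-fold, 37 were lower at 72 h of inhibitor (22% of genes) and 40 in recovery (26%).

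The comparison of 72 h of inhibitor with 72 h untreated is the one matched for time. Of the 77 members 58 were lower and 19 higher, where 61.0% of the 9346 genes measured were lower. Past 1.5-fold, 17 members were lower (20% of all genes) and 3 higher (7.38%). The median log2 ratio was -0.23 over members and -0.14 over all genes. A shift of that size depended on scaling, since both medians moved up together, to 0.0026 and 0.098, when libraries were scaled by the median of gene ratios in place of the total. Under that scaling 37 members were lower, where 42.3% of genes were. Past 1.5-fold 8 were lower (11.6% of genes) and 5 higher (share of genes not counted). The share of members past 1.5-fold lower was close to that of all genes as first scaled, and the share below 0 exceeded it.

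The members were also counted by class of protein, with no test of a difference between classes. Of 29 large subunit proteins with a bacterial counterpart 26 were lower, with a median of -0.31, and of 16 such small subunit proteins 13 were lower, with a median of -0.40. Among proteins without a bacterial counterpart 13 of 21 in the large subunit were lower, with a median of -0.18. In the small subunit 5 of 10 were lower, with a median of 0.05 and none past 1.5-fold. Median-of-ratios scaling adds 0.23 to each of these medians, so that the first pair stayed negative, at -0.07 and -0.17, and the large subunit proteins without a bacterial counterpart turned positive, at 0.05, beside 0.28 for those of the small subunit.

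MRPL28, a large subunit protein with a bacterial counterpart, had the lowest ratio. Its levels were 58.5, 43.7, 55.7, 23.5 and 36.4 CPM, and at 72 h of inhibitor it was 2.37-fold (2.25 to 2.50) below 72 h untreated. The untreated libraries were close to each other, 72 h of inhibitor was the lowest library, and recovery lay between. MRPL20, which binds ribosomal RNA early in the assembly of the bacterial large subunit, had 239, 183, 132, 59.6 and 52.6 CPM and was 2.21-fold (2.14 to 2.28) lower. For MRPL20 the 72 h untreated library itself was well below 0 h, and recovery showed no return. MRPS18A, of the large subunit, had 62.9, 48.6, 53.6, 25.2 and 23.1 CPM and was 2.13-fold (2.02 to 2.24) lower.

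MRPL16, whose bacterial counterpart helps to position transfer RNA, had 93.5, 81.7, 89.1, 46.7 and 35.05 CPM and was 1.91-fold (1.84 to 1.98) lower. MRPL23, whose bacterial counterpart lies at the exit of the peptide tunnel, had 39.0, 27.8, 35.8, 18.9 and 22.1 CPM and was 1.89-fold (1.78 to 2.01) lower. In both, the untreated libraries stood close together and both libraries after 72 h of inhibitor stood well below them. MRPS7, a small subunit protein that nucleates assembly of the head in bacteria, had 198, 157, 138, 73.5 and 77.05 CPM, with a log2 ratio of -0.91. MRPL12, a stalk protein also known to bind the mitochondrial RNA polymerase, had 211, 167, 148, 93.4 and 80.0 CPM, with a log2 ratio of -0.66.

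**Figure D3:**
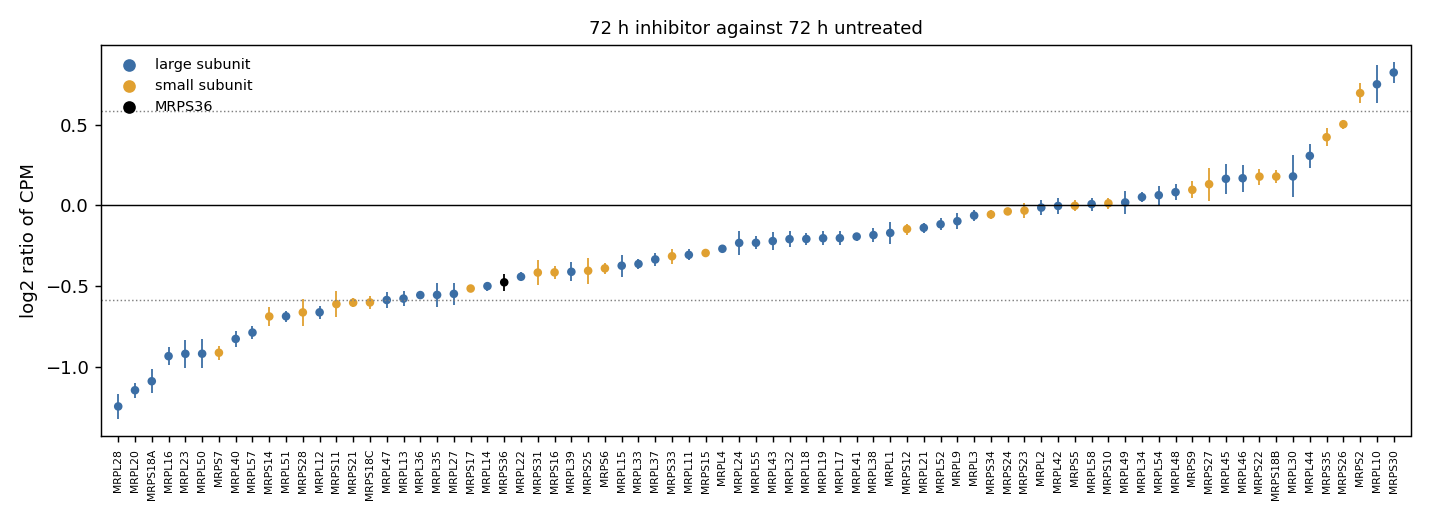
Log2 ratio of CPM at 72 h of inhibitor to 72 h untreated (y axis) for the 77 members in order (x axis), with 95% counting intervals, and dotted lines at 1.5-fold. The order runs from MRPL28 at -1.24 to MRPS30 at 0.82, with 58 members below 0.

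Of the 19 members that were higher, MRPL10 and the 5 of highest ratio among those at 20 CPM or more are described here. MRPS30, of the large subunit, had 45.8, 40.1, 36.0, 63.6 and 53.5 CPM and was 1.77-fold (1.69 to 1.85) higher at 72 h of inhibitor than at 72 h untreated. Both libraries that had seen 72 h of inhibitor lay above every other library for it. MRPL10, which forms the base of the stalk that MRPL12 extends, had only 10.6, 9.32, 10.3, 17.4 and 19.1 CPM, again with both libraries after 72 h of inhibitor above the others, and a log2 ratio of 0.75. MRPL10 falls below the 20 CPM at which members were named by ratio, and is named as 1 of the 5 of lowest mean level. It is given here because its partner MRPL12, itself named after its values were seen, had -0.66. MRPS2, a small subunit protein with a bacterial counterpart, had 56.3, 46.2, 35.8, 58.0 and 30.9 CPM and was 1.62-fold (1.55 to 1.69) higher. At 72 h of inhibitor MRPS2 was at its 0 h level, and the difference from 72 h untreated rests on the lower level of that library. MRPS26 had 223, 174, 181, 256 and 200.5 CPM and MRPS35 had 55.7, 58.3, 47.5, 63.6 and 64.0 CPM, with log2 ratios of 0.50 and 0.42. MRPL44, which carries a ribonuclease III-like fold, had 32.5, 29.4, 29.1, 35.9 and 37.2 CPM and a log2 ratio of 0.31.

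Paralogs and neighbours show how far members can part. The 3 paralogs of the S18 family are MRPS18A in the large subunit and MRPS18B and MRPS18C in the small subunit. MRPS18B had 125, 112, 113, 127 and 106 CPM, with a log2 ratio of 0.18 at 72 h of inhibitor against untreated. MRPS18C had 190, 149.5, 155, 102 and 125 CPM, with -0.60, and MRPS18A had -1.09. MRPL46 and MRPS11 start 320 bases apart on opposite strands of chromosome 15, the only pair of matched members that face each other within 1000 bases, and were singled out after their values were seen. MRPL46 had 36.4, 27.5, 24.5, 27.6 and 20 CPM and MRPS11 had 47.0, 37.8, 37.0, 24.2 and 21.8 CPM. Their log2 ratios at 72 h of inhibitor against untreated were 0.17 and -0.61, and both genes were lowest in recovery.

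At 6 h of inhibitor nearly all members were lower than at 0 h. Of 77 members 71 were lower, where 39.8% of 9075 genes were, and the median was -0.22 beside 0.10 over all genes. None was past 1.5-fold lower or higher, beside 0.882% and 11% of genes. Of the 50 large subunit genes 48 were lower and of the 26 small subunit genes 22. The members were not alone in this. Nuclear-encoded subunits of oxidative phosphorylation had 73 of 75 lower in the same comparison, with a median of -0.22. Cytosolic ribosomal protein genes had 79 of 84 lower, with a median of -0.13. The largest differences were those of MRPL23, 1.40-fold (1.34 to 1.47) lower, of MRPL50, at -0.44, and of MRPL51, at -0.43. MRPL51 had 341, 253, 225, 139.9 and 181 CPM and MRPL50 had 54.2, 39.9, 32.0, 16.9 and 19.8 CPM, so for both the 0 h library was the highest. Higher at 6 h were MRPS27, a pentatricopeptide repeat protein, at 0.29, MRPS10 at 0.21, and MRPS35, MRPS5, MRPL33 and MRPL45 at 0.07 or less. With median-of-ratios scaling 75 members were lower at 6 h, where 56.9% of genes were. Past 1.5-fold 4 members were lower (2.68% of genes). MRPS35, MRPS5, MRPL33 and MRPL45 turned negative, and so did the median over all genes, to -0.07.

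Set beside 72 h untreated cells, the 6 h library did not show that shift. In that comparison 30 members were lower, where 44.8% of genes were, and the median log2 ratio was 0.055 over members and 0.055 over all genes. Past 1.5-fold no member was lower (10.5% of genes). Gene length moved with the 6 h comparison as well. Members spanned a median of 12.4 kb in GENCODE 29, beside 36.6 kb for protein-coding genes at the minimum, and 48 of the 77 fell in the shortest of 4 equal classes of genes by span. In that class 76.8% of all genes were lower at 6 h than at 0 h, with a median of -0.17, and 47 of the 48 members were, with a median of -0.25. In the longest class 9.46% of genes were lower, with a median of 0.39, and 3 of 5 members, with a median of -0.14. Whether the deposited counts hold intronic reads, of which long genes can give more, is not known from the sources used here. The part of gene span in the members' difference was not tested.

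Between the untreated libraries the members were lower at 72 h as well. A total of 65 were lower than at 0 h, where 41.1% of 9303 genes were, and the median was -0.28 beside 0.10. Past 1.5-fold 12 were lower (6.2% of genes) and none higher (15.9%). Gene span moved with this comparison too. In the shortest class by span 56.6% of genes were lower, with a median of -0.07, and 42 of 48 members, with -0.30. In the longest class 24.6% of genes were lower, with a median of 0.26, and 4 of 5 members, with -0.33. The part of gene span in this difference was not tested. MRPL54 had the largest difference, at 105, 85.5, 52.9, 55.2 and 51.5 CPM, 1.98-fold (1.92 to 2.05) lower at 72 h untreated. Its levels in the last 3 libraries were close together, with a log2 ratio of 0.06 for 72 h with against without the inhibitor. MRPL27, whose bacterial counterpart reaches into the peptidyl transferase centre, had 93.9, 70.8, 48.9, 33.5 and 27.7 CPM and was 1.92-fold (1.85 to 1.99) lower. The highest ratios were those of MRPS14 (0.24), MRPL34 (0.19) and MRPS10 (0.13), all of which turned negative with median-of-ratios scaling. Under that scaling all 77 members were lower, where 63.4% of genes were, and the median over all genes was -0.16. Past 1.5-fold 32 members were lower (16.8% of genes). S phase genes differed between the same libraries, with 43 of 43 lower at 72 h untreated and a median of -0.62, and their part in the members' difference was not tested. Among cells low in both the S and G2/M lists the median cell held 57 member UMIs per 5000 at 0 h and 45 at 72 h untreated.

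From 6 h to 72 h of inhibitor 61 members were lower, where 61.7% of 9359 genes were, with 20 past 1.5-fold lower (25.2%) and 2 higher (12.1%). The median was -0.34 beside -0.18. MRPL20 was 3.06-fold (2.97 to 3.16) lower, the largest ratio of any member in the 6 comparisons. MRPL50 had -1.24, MRPS7 -1.09, MRPL27 -1.08 and MRPL57 -1.002. MRPS30 (0.66), MRPS26 (0.56), MRPL34 (0.48), MRPS2 (0.33) and MRPS34 (0.32) had the highest ratios among the named members. MRPL34 had 156, 133, 179, 185 and 137 CPM, so its 72 h libraries with and without inhibitor were alike and 6 h and recovery were lower.

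**Figure D4:**
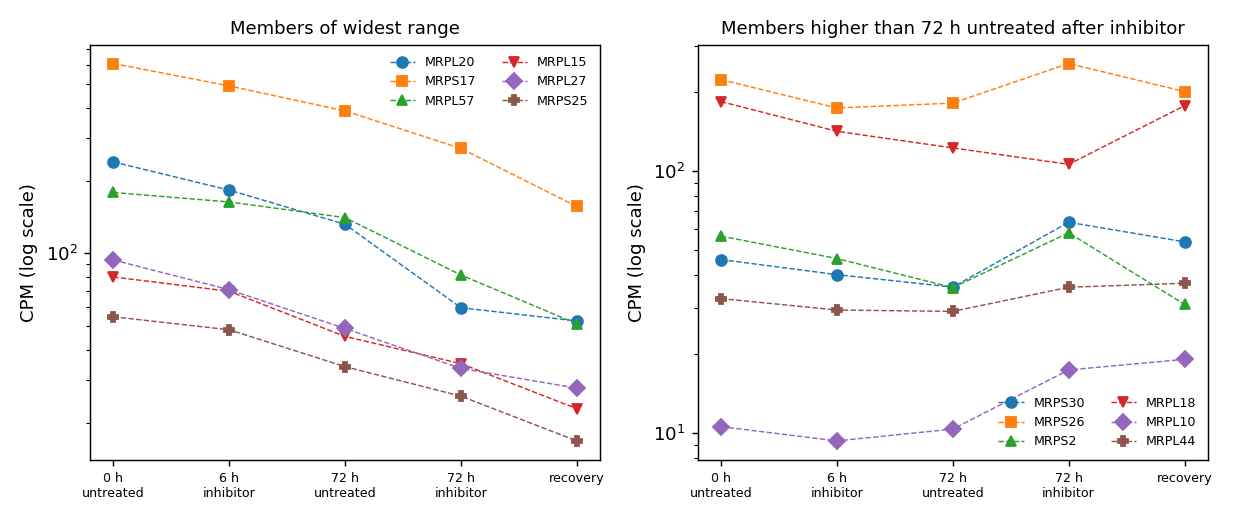
CPM on a log scale (y axis) of 6 members of widest range (left) and of 6 members higher than in 72 h untreated cells at 72 h of inhibitor or in recovery (right) in each library (x axis); dashed lines only join the points of 1 gene. On the left all 6 are highest at 0 h and lowest in recovery, from 239 to 52.6 CPM for MRPL20.

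In recovery the members did not return as a group. Against 72 h of inhibitor 48 were lower, where 50.6% of 8943 genes were, and 29 higher, with a median of -0.12 beside -0.0086. Past 1.5-fold 6 were lower (14.3% of genes) and 2 higher (14.2%). By subunit 27 of 50 large subunit genes and 20 of 26 small subunit genes were lower, a difference that was not tested. Nuclear-encoded subunits of oxidative phosphorylation had 57 of 75 higher in the same comparison, with a median of 0.12, and mitochondrial translation factors had 13 of 15 lower, with a median of -0.37. Of 54 G2/M genes 53 were higher, with a median log2 ratio of 1.16, and their part in the members' values was not tested.

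MRPL18, whose bacterial counterpart binds 5S ribosomal RNA, had the highest ratio to 72 h of inhibitor. Its levels were 184, 141, 122, 106 and 177 CPM, and recovery was 1.67-fold (1.63 to 1.72) above 72 h of inhibitor and near the 0 h level. MRPL28 was 1.55-fold (1.47 to 1.64) higher in recovery but remained below both untreated libraries. Among cells with few UMIs of either cell cycle list neither passed 1.5-fold, with log2 ratios of 0.56 for MRPL18 and 0.45 for MRPL28. MRPL22 (0.41), MRPS14 (0.39) and MRPL51 (0.37) followed. MRPS2 had the lowest ratio, 1.88-fold (1.79 to 1.96) lower, and its 30.9 CPM in recovery was the lowest of the 5 libraries.

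As no untreated library is known to match recovery in time, recovery and time in culture cannot be told apart in the next comparison. Against 72 h untreated, recovery was lower in 63 members, where 61.3% of 9405 genes were. Past 1.5-fold 24 were lower (24.9%) and 1, MRPL10, higher (11.7%). The median was -0.31 beside -0.17, and with median-of-ratios scaling both were 0.26 higher, at -0.054 and 0.090. Under that scaling 11 members were past 1.5-fold lower (14.7% of genes) and 5 higher (share of genes not counted). MRPL57, a large subunit protein without a bacterial counterpart, had 179, 163, 141, 81.4 and 51.2 CPM and was 2.75-fold (2.66 to 2.84) lower. MRPL16 was 2.54-fold (2.44 to 2.64) and MRPL20 2.51-fold (2.43 to 2.59) lower. Each of these had its lowest level in recovery. MRPS30 (0.57), MRPL18 (0.53), MRPS35 (0.43), MRPL44 (0.36) and MRPL49 (0.27) were the highest of the named members.

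MRPS17 was the most abundant member at 0 h and, after MRPL20, had the widest range, 1.96 on the log2 scale. Its levels were 609, 492, 388, 271 and 156 CPM, and recovery was 2.48-fold (2.44 to 2.53) below 72 h untreated and 1.74-fold (1.70 to 1.77) below 72 h of inhibitor. It lies at chr7:55951819-55956501 on GRCh38, 740 kb from EGFR, the receptor gene that is amplified in MDA-MB-468 cells, and shares its strand with the overlapping NIPSNAP2. EGFR had 2477, 4397, 2570, 2391 and 1428 CPM, and NIPSNAP2 had 199, 206, 297, 271 and 257 CPM. The neighbourhood, 11 other genes at the minimum within 1 Mb, was examined after the values of MRPS17 were seen. In recovery 10 were lower than at 72 h untreated, with a median of -0.57, beside 61.3% and -0.17 over all genes. For 72 h of inhibitor against untreated 9 of 11 were lower, with a median of -0.31, beside 61.0% and -0.14. For 72 h against 0 h untreated 5 of 11 were lower, with a median of 0.05, beside 41.1% and 0.10. All of these are scaled by library totals. The part of the neighbourhood in the level of MRPS17 was not tested. A total of 12 members overlap another annotated gene on the same strand, so for them, as for MRPS17, the counts may be shared.

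The 6 members of widest range, MRPL20, MRPS17, MRPL57, MRPL15, MRPL27 and MRPS25, each had levels that went down from library to library in the order used here. MRPL15 had 79.9, 69.8, 45.4, 35.02 and 22.8 CPM, a range of 1.81. MRPS25, without a bacterial counterpart, had 54.7, 48.4, 34.0, 25.7 and 16.8 CPM, a range of 1.70. The order mixes treatment and time and is not a time course.

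Levels among members were spread over more than a factor of 10. Since the kit counts 1 tag near the 3′ end of a transcript, levels were not divided by gene length. The 10 highest mean levels over the libraries belonged to MRPL4 (423 CPM), MRPS15 (395), MRPS17 (383), MRPS24 (369), MRPL41 (301), MRPL14 (267), MRPL36 (255), MRPS34 (247), MRPL33 (239) and MRPS21 (235). MRPL46, MRPL45, MRPS27, MRPL10 and MRPL30 were the lowest. The abundant MRPL4, whose bacterial counterpart lines the peptide tunnel, had 518, 438, 422, 350 and 389 CPM. MRPS15 had 439, 375, 446, 364 and 350 CPM, and MRPS24, the counterpart of bacterial S3, had 430, 378, 342, 333 and 363 CPM. The widest range among these was that of MRPL4, 0.56 on the log2 scale. MRPL45, which lies at the tunnel exit and tethers the ribosome to the inner membrane, had 20.6, 20.9, 19.9, 22.2 and 15.7 CPM. MRPL58, a peptidyl-tRNA hydrolase that rescues stalled ribosomes, had 114, 109, 112, 113 and 77.1 CPM, so only recovery stood apart. MRPS36 had 79.6, 73.1, 77.4, 55.6 and 48.5 CPM, lower after 72 h of inhibitor than in the other 3 libraries.

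Within cells the difference between libraries was a shift of the whole distribution. With each cell thinned to 5000 UMIs, the median cell held 56, 48, 46, 38 and 36 member UMIs. In the same order of libraries the quartiles were 49 to 65, 41 to 55, 40 to 53, 32 to 44 and 31 to 43 UMIs, so the quartile range at 0 h did not overlap those of the last pair of libraries. The median number of members detected per thinned cell was 35, 31, 30, 27 and 25. Cells with high G2/M counts had medians of 57, 50, 47, 37 and 38, and low-cycle cells, low in both lists, 57, 47, 45, 38 and 35. In both classes 0 h was the highest library and the libraries after 72 h of inhibitor were the lowest. Recovery lay below 72 h of inhibitor over all cells and in low-cycle cells, but not in G2/M-high cells. The part of the cell cycle in these values was not tested. Only 5 cells at 72 h of inhibitor and 6 in recovery were S-high without being G2/M-high, too few to describe. Across the thinned cells of a library, Spearman's rho between member UMIs and those of nuclear-encoded oxidative phosphorylation genes was 0.43 to 0.57 over 1868 to 3700 cells, and with mitochondrially encoded genes -0.30 to -0.06. With cytosolic ribosomal protein genes it was 0.25 to 0.47. The cells of a library share its preparation, and at a fixed total of UMIs the shares of gene groups depend on each other, so these are descriptions of the libraries.

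**Figure D5:**
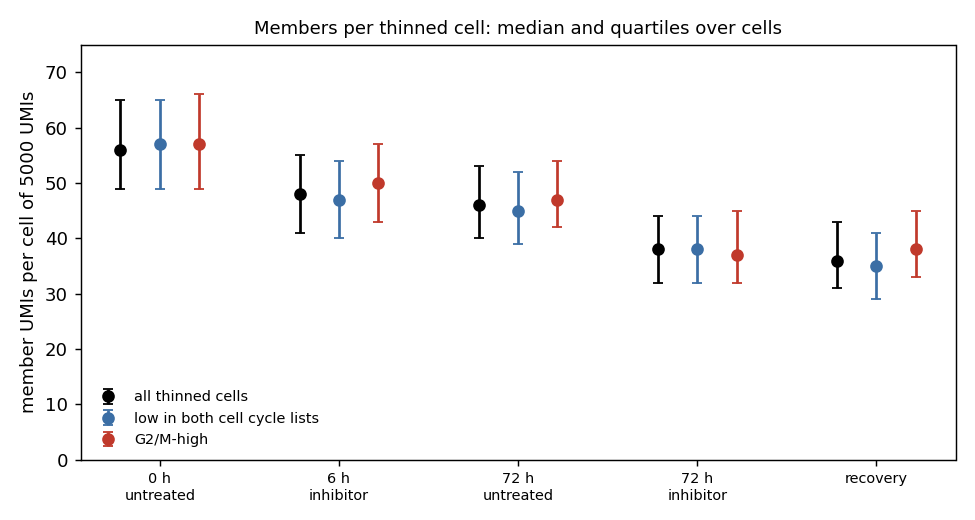
Member UMIs per cell thinned to 5000 UMIs (y axis) in each library (x axis), as medians (points) with quartiles over cells (bars), for all thinned cells (black), cells low in both cell cycle lists (blue) and G2/M-high cells (red). The 3 classes lie together in each library, from 56 UMIs over all cells at 0 h to 36 in recovery.

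The other genes of mitochondrial translation, from lists drawn up alongside the members, did not all follow them. At 72 h of inhibitor against untreated, 61.0% of all genes were lower, with a median of -0.14. Of 5 ribosomal proteins with other names 4 were lower, with a median of -0.22. CHCHD1 of the small subunit had -0.64 and AURKAIP1 -0.32, while DAP3, a GTP-binding small subunit protein, had 0.16. Of 25 assembly factors 16 were lower, with a median of -0.12. Translation factors had 7 of 15 lower, with a median of 0.12, and TUFM, the mitochondrial elongation factor Tu, had -0.04. Mitochondrial tRNA synthetases had 7 of 13 lower, with a median of -0.02. Under median-of-ratios scaling the medians of the proteins with other names, the assembly factors and the synthetases turned positive, at 0.012, 0.11 and 0.21. TUFM did as well, and the median over all genes was then 0.098. Of 14 genes of mitochondrial DNA maintenance, transcription and RNA processing 7 were lower, with a median of -0.03, or 0.20 under median-of-ratios scaling. The transcription factor TFB2M had 1.11, the RNA helicase SUPV3L1 1.02 and the ribonuclease P subunit TRMT10C -0.90. TFAM, which packages and transcribes mitochondrial DNA, had -0.47, and POLRMT, the mitochondrial RNA polymerase, 0.87. Among regulators of mitochondrial biogenesis 7 of 8 were higher, with a median of 0.38, MYC at 0.91 among them and the transcription factor NRF1 at -0.47.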

How the data were processed

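Deposited were whole-number counts of UMIs for each gene in each cell barcode, which the authors made with Cell Ranger 7.1.0 on GRCh38, per the submitters' processing notes. Cells came from 10x 3′ version 3.1 libraries, per the labels' protocols. Not given in the sources used here were the annotation release and how intronic reads were treated. Cells were kept from 1000 detected genes upward and up to 20% mitochondrially encoded UMIs. No doublet caller and no clustering was run. Summed counts of a library, divided by its total, gave CPM. Genes reaching 10 CPM in either library entered a comparison, with a floor of 3 counts for a sum of 0. Ratios carry exact 95% Clopper-Pearson intervals, conditional on the sum of both counts, that cover counting error only. The ratio step was tested on simulated data. Cells of at least 5000 UMIs were thinned to 5000, which left out 5, 10, 35, 59 and 75 cells in the order 0 h, 6 h, 72 h untreated, 72 h inhibitor and recovery. Cells were G2/M-high above the 75th percentile of the 0 h library (35 UMIs). They were S-high above its S percentile (22 UMIs) if not G2/M-high, and low at or under both medians (15 and 19 UMIs). Members, roles and lists were chosen with earlier results of these data known. Named members are the 5 highest and 5 lowest of each comparison at 20 CPM or more, the 10 of highest and 5 of lowest mean, the 6 of widest range, and MRPS30, MRPS18A, MRPS18B and MRPS36 for their names. Outside this rule MRPL2, MRPL12, MRPL58, MRPS11, MRPS18C and DAP3 were named after their values were seen. Promoters came from RefSeq (GRCh38.p14) and spans from GENCODE 29. For 63 of the 68 promoters the first bases after the start were found in a GENCODE 29 transcript of the same gene. Alternatives were other cell filters, scalings, weights, cell classes, minima, the other untreated library and a shorter promoter window. Python 3.11.15 and the normalization factors of edgeR 4.0.16 were used.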

Additional observations from a re-analysis of the deposited data

Results flagged for a closer look

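MRPS26, a small subunit protein without a bacterial counterpart, lay on opposite sides of 0 in the 2 comparisons of inhibitor with untreated cells. Its log2 ratio was 0.50 at 72 h of inhibitor against 72 h untreated and -0.36 at 6 h of inhibitor against 0 h. The difference between them was not tested, since each group is 1 library. At 6 h its level, 174 CPM, was close to the 181 CPM of the 72 h untreated library.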

How the results depend on the processing

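No paired analysis was possible because each group has 1 library and the labels give no shared replicate numbers. Cell filters, thinning and minima on expression left the members' medians within the counting width of typical members. Scaling did not. With median-of-ratios size factors the median for 72 h inhibitor against 72 h untreated was 0.0026 (37 members lower, where 42.3% of genes were). It was -0.39 for 6 h against 0 h and -0.20 for 72 h against 6 h of inhibitor. For recovery against 72 h untreated it was -0.054, and between the untreated libraries -0.54. In the same order the medians were -0.0081, -0.36, -0.22, -0.075 and -0.52 with the trimmed mean of M values. Totals without mitochondrially encoded and cytosolic ribosomal protein genes gave -0.11 for 72 h inhibitor against untreated, -0.23 against 6 h and -0.22 for recovery against 72 h of inhibitor. Equal weight per cell gave -0.29 for 72 h inhibitor against untreated. Cells low in both cell cycle lists gave -0.29 at 6 h, -0.18 for recovery against 72 h of inhibitor and -0.36 against 72 h untreated. Against the other untreated library the medians were -0.56 at 72 h of inhibitor and -0.63 in recovery. At 6 h the median was 0.055, with 30 members lower (44.8% of genes). Scalings move members and all genes by the same amount and leave the gap between their medians as it was. Under the settings that change the cells or their weights the members' median lay below that of all genes, and with the 6 h library set against 72 h untreated both were 0.055.

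Summed member CPM, in the order 0 h, 6 h, 72 h untreated, 72 h inhibitor and recovery, was 12166, 9193, 8389, 8180 and 8062 with median-of-ratios, 12034, 9327, 8439, 8168 and 7997 with the trimmed mean, 15152, 12721, 12281, 11094 and 10015 with reduced totals, 11380, 9668, 9271, 7540 and 7368 with equal weight, and 11462, 9424, 9217, 7761 and 7124 in low-cycle cells. A 10% mitochondrial limit gave 11441, 9723 and 9461 in the first 3. Without the 5% of cells with most UMIs it was 11316, 9314, 7791 and 7503 (all but 6 h), and in cells of 20000 to 60000 UMIs, chosen after seeing the data, 11335, 9334 and 7797 (0 h, 72 h untreated and 72 h inhibitor). The order of libraries was the same in each of these full sets of 5. Thinning to 10000 UMIs gave 37.5 member UMIs per 5000 in recovery. In the 100 bases before the start 39.7% of member promoters held the GC box and 13.2% CCAAT. Among promoters of genes at the minimum these shares were 54.0% and 22.5%.

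With median-of-ratios scaling 8 members were past 1.5-fold lower (11.6% of genes) and 5 higher for 72 h inhibitor against untreated. For recovery against untreated 11 were lower (14.7% of genes) and 5 higher, and between the untreated libraries 32 were lower (16.8%). The share of all genes higher was not counted under this scaling. The cause of these changes was not tested beyond the scaling itself. No comparison has a replicate, so none of these values says how far libraries of 1 condition would differ. The labels do not say whether libraries were prepared together, so library preparation and condition cannot be told apart.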
